A study of Mus musculus with 8 samples.

Results

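Interferon-stimulated genes are the genes that a cell switches on when interferon binds its receptors, and 9 of them were followed in the brown adipose tissue (BAT) of mice lacking adipose triglyceride lipase (ATGL). The 9 genes, Irf7, Irf9, Isg15, Ifit1, Ifit3, Bst2, Ifi27l2a, Oasl2 and Ifitm3, were taken by symbol from the 31053 gene identifiers of the count table, and all 9 were found. They were named as a list of interferon response genes and not by a threshold on these counts, although the list was drawn up with earlier results of the same data known. BAT of 4 wild-type (WT) and 4 Ucp1Δ/Δ mice was profiled by bulk mRNA sequencing. The Ucp1Δ/Δ mice, labelled ATGLKO, carried floxed Pnpla2, the gene of ATGL, with a Cre recombinase driven by the Ucp1 promoter, so the deletion was aimed at brown adipocytes and not at the immune or vascular cells of the tissue. All 8 animals were males on the C57BL/6J background, and the labels give an age of 10 weeks where the study's own text gives a younger one. The labels name each sample as 1 mouse, so the spread within a genotype is that between mice.

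Interferons are secreted proteins that bind receptors coupled to kinases of the JAK family, such as JAK1. Type I interferons lead to a transcription factor complex that contains IRF9 and binds the interferon-stimulated response element (ISRE) in promoters, whereas interferon gamma acts mainly at the gamma-activated site (GAS). The products of the induced genes block viral entry, translation and budding, and some of them, such as IRF7, raise the output of the pathway itself.

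The promoters of the members hold the sequence through which the pathway is known to act, and 5 of them are shown because they carry its core. RefSeq promoter windows of mouse build GRCm38.p6, running from 250 bases before to 50 bases after the annotated start, were found for 8 of the 9 members, and Ifi27l2a had none in the table. The ISRE core was searched on both strands as GAAA, any 2 bases and GAAA again, and matches may overlap. In the windows printed here, 5′ to 3′ on the strand of the gene, capitals mark the matches, and 20 bases are given on either side of those that lie before the start. Isg15 (chr4:156200855-156200916, minus strand) held 3 overlapping matches and Bst2 (chr8:71537567-71537622, minus strand) held 2. In Ifit1 (chr19:34640765-34640833, plus strand) and Ifit3 (chr19:34583353-34583436, plus strand) the motif read on the opposite strand, so that its letters appear as TTTC repeats. Ifitm3 (chr7:141010716-141010742, minus strand) carried its matches just downstream of the start.
Isg15: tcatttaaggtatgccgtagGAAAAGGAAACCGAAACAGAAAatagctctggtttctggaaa
Ifit1: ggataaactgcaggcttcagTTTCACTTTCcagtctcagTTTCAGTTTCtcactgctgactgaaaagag
Ifit3: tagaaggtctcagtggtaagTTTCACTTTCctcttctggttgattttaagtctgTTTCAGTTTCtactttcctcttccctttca
Bst2: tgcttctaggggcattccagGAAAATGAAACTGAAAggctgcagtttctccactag
Ifitm3: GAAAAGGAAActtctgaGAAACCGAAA

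The neighbouring genes Ifit1 and Ifit3 shared both matches letter for letter, TTTCACTTTC and TTTCAGTTTC, in the same order. The core was present in 5 of the 8 member windows (62.5%), in 23 of 44 windows of the other type I interferon-stimulated genes (52.3%) and in 1079 of all 27025 windows (3.99%). The GAS core, searched as TTCNNNGAA on both strands, was present in 2 of the 8 member windows (25%), those of Bst2 and Ifitm3, where it overlapped an ISRE match, against 9.55% of all windows. The windows of Irf7, Irf9 and Oasl2 held no match to the ISRE core, which says only that these letters were not in these 300 bases. A match is a description of the sequence, not a measured binding site.

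Depth set how finely the members could be measured. The libraries held 2017697 to 3115956 counts in WT and 2240612 to 2941799 in ATGLKO mice, of which 38.4 to 45.6% fell on mitochondrially encoded genes. In such libraries 3 counts, the limit that a count of 0 allows, correspond to 0.933 to 1.53 counts per 1000000 (CPM), a limit that covers counting error only. Levels are given as CPM of libraries scaled by the trimmed mean of M-values, and changes as the log2 fold change (log2FC) of ATGLKO over WT from edgeR's quasi-likelihood test, with its standard error (SE) and a p-value adjusted by Benjamini-Hochberg over the 8930 genes tested. The targeted gene, Pnpla2, was 2913 ± 191 CPM in WT and 474 ± 59.2 CPM in ATGLKO mice (SD, n = 4 each), with a log2FC of −2.62 (SE 0.17, edgeR adjusted p = 1.97e-07), so every library matched its label.

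Across the members, 2 of the 8 that could be tested rose in ATGLKO BAT, Ifitm3 and Irf7, and the log2FC of all 8 was above 0 with a median of 0.93. Of all 8930 genes tested, 21.0% changed, 13.3% rising and 7.63% falling, and the median log2FC was −0.01, so 25% of the members is to be read against 13.3% of all genes. No tested member was called lower by edgeR, DESeq2 or limma voom, and 0 of the 8 were lower at an unadjusted edgeR p under 0.05. In 3 of the 8 tested members, Irf7, Irf9 and Ifitm3, every ATGLKO mouse was above every WT mouse, which held for 14.4% of all genes tested. Oasl2, which fell under the filter on low counts, showed the same separation, which held for 10.9% of the 16617 genes with at least 1 count.

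**Figure D1:**
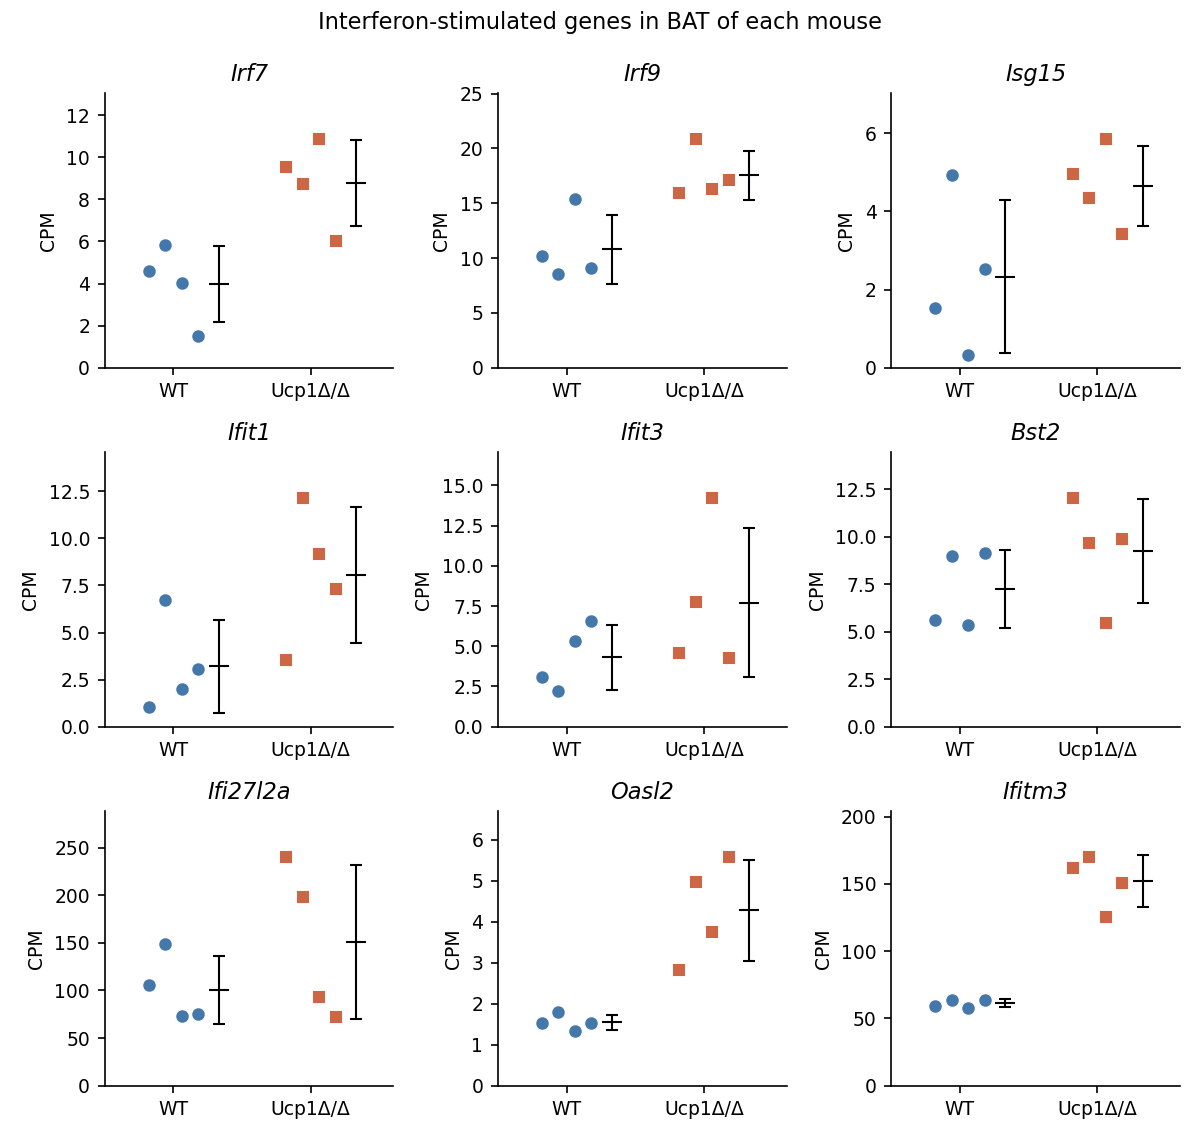
CPM of each of the 9 interferon-stimulated genes in the 4 WT (circles) and 4 Ucp1Δ/Δ or ATGLKO mice (squares), 1 panel a gene, each with its own vertical axis starting at 0. Points are mice in the order of their numbers and the bars beside them are the mean and SD. The points of the genotypes separate for Irf7, Irf9, Oasl2 and Ifitm3, and overlap for Isg15, Ifit1, Ifit3, Bst2 and Ifi27l2a.

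Ifitm3 encodes a membrane protein that hinders the fusion of incoming viruses in endosomes and lies on chromosome 7 (mm10, chr7:141009586-141010770, minus strand). It measured 59.1, 64.1, 58.1 and 63.8 CPM in the WT mice and 162, 170, 126 and 151 CPM in the ATGLKO mice. The WT mice lay within a few CPM of each other, and the lowest ATGLKO mouse was far above all of them. The means were 61.3 ± 3.1 and 152 ± 19.2 CPM (SD, n = 4 each), a 2.48-fold difference, with a log2FC of 1.31 (SE 0.16, 95% interval 0.96 to 1.66, edgeR adjusted p = 3.95e-05). The exact two-sided permutation test over the 8 mice gave p = 0.0286, the smallest that 4 against 4 mice allow. Ifitm3 passed in all 17 alternative settings tried, with a log2FC from 1.25 to 1.45. In the 75-base windows of its transcripts, 0.662% were shared with the predicted gene Gm7676.

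Irf7 and Irf9 encode the transcription factors of the group. Irf7, known as a master regulator of type I interferon production (chr7:141262706-141266481, minus strand), was counted 9, 13, 12 and 3 times in WT and 27, 28, 26 and 14 times in ATGLKO mice. The corresponding levels were 4.59, 5.82, 4.01 and 1.52 CPM against 9.55, 8.71, 10.9 and 6.01 CPM. The genotypes did not overlap, but WT 2 and ATGLKO 4 were close to each other, at 5.82 and 6.01 CPM. The mean rose 2.20-fold, from 3.99 ± 1.81 to 8.78 ± 2.05 CPM, with a log2FC of 1.12 (SE 0.35, 95% interval 0.37 to 1.87, edgeR adjusted p = 0.0341) and an exact permutation p = 0.0286. This call was the less firm of the pair: the log2FC stayed between 0.87 and 1.34 whichever mouse was left out, but the adjusted p passed 0.05 without WT 1 (0.0583), WT 3 (0.0821), WT 4 (0.0714), ATGLKO 1 (0.0755), ATGLKO 2 (0.0706) or ATGLKO 3 (0.0855) in edgeR, and was 0.0666 in DESeq2. Of its exon bases, 45 overlap Phrf1 on the opposite strand.

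Irf9, a DNA-binding subunit of the complex that recognises the ISRE (chr14:55603571-55610030, plus strand), measured 10.2, 8.51, 15.4 and 9.12 CPM in WT and 15.9, 20.8, 16.3 and 17.2 CPM in ATGLKO mice. WT 3 came close to the lowest ATGLKO mouse, and the other WT mice lay well below. Means of 10.8 ± 3.12 and 17.6 ± 2.25 CPM gave a log2FC of 0.68 (SE 0.24, 95% interval 0.17 to 1.19), which did not pass the test (edgeR adjusted p = 0.0556; exact permutation p = 0.0286). Without WT 3 the log2FC was 0.91 and the edgeR adjusted p 0.0217, and with libraries scaled by total counts alone it was 0.0275. Irf9 shares 123 exon bases with Rnf31, which runs on the same strand.

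Ifit1 and Ifit3 encode tetratricopeptide proteins that hold back the translation or replication of viral RNA, and they lie close together on chromosome 19 (chr19:34640871-34650009 and chr19:34583531-34588731, plus strand). Ifit1 measured 1.02, 6.72, 2.0 and 3.04 CPM in WT and 3.54, 12.1, 9.19 and 7.30 CPM in ATGLKO mice. WT 2 exceeded ATGLKO 1, and the genotypes otherwise separated. The mean was 3.20 ± 2.49 CPM in WT and 8.04 ± 3.60 CPM in ATGLKO mice, with a log2FC of 1.33 (SE 0.48, 95% interval 0.31 to 2.35, edgeR adjusted p = 0.0614) that did not pass. Leaving out WT 2 gave 1.96 (edgeR adjusted p = 0.0106) and leaving out ATGLKO 1 gave an adjusted p of 0.0270, and with all 8 mice it was 0.0391 with total-count scaling, 0.0245 in limma voom, 0.0120 without the filter and 0.0173 with a replicate block, so the call depended on the mice and on the analysis. Ifit3 measured 3.06, 2.24, 5.34 and 6.59 CPM in WT and 4.60, 7.78, 14.2 and 4.29 CPM in ATGLKO mice. Only ATGLKO 2 and 3 were above the WT range, and the log2FC of 0.82 did not pass (SE 0.43, 95% interval −0.11 to 1.74, edgeR adjusted p = 0.211). Without ATGLKO 3 it was 0.38 (edgeR adjusted p = 0.595). The count of Ifit3 is uncertain in another way, since 41.1% of its 75-base windows also occur in Ifit3b, whose own counts were 2, 3, 9 and 5 in WT and 5, 8, 6 and 8 in ATGLKO mice. Of the Ifit1 windows, 5.19% were shared with Ifit1bl2.

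Isg15, a ubiquitin-like protein that is coupled to other proteins during the interferon response (chr4:156199424-156200818, minus strand), was the sparsest tested member, with 3, 11, 1 and 5 counts in WT and 14, 14, 14 and 8 counts in ATGLKO mice. WT 2, at 4.93 CPM, reached the level of the ATGLKO mice, and the other WT mice were below all of them. The log2FC of 1.04 did not pass (SE 0.51, 95% interval −0.04 to 2.12, edgeR adjusted p = 0.168). It was 1.76 without WT 2 (edgeR adjusted p = 0.0290) and 0.59 without WT 3 (edgeR adjusted p = 0.425), so single mice moved its value by over 1.5 times.

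Oasl2, a relative of the oligoadenylate synthetases with ubiquitin-like domains (chr5:114896936-114912234, plus strand), was counted 3, 4, 4 and 3 times in WT and 8, 16, 9 and 13 times in ATGLKO mice. Levels ran from 1.34 to 1.79 CPM in WT and from 2.83 to 5.58 CPM in ATGLKO mice, without overlap. The ratio of means was 2.78, with an exact permutation p = 0.0286. Too few mice reached the level that the low-count filter asks for, with only 8 and 9 counts in ATGLKO 1 and 3. The gene therefore entered the edgeR test only when the filter was dropped. There its log2FC was 1.42 (SE 0.53, edgeR adjusted p = 0.0527), in a fit that called 9.81% of 16617 genes higher.

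Bst2 and Ifi27l2a moved least in relation to their spread. Bst2, or tetherin, which holds budding virions at the cell surface and in mice also marks plasmacytoid dendritic cells (chr8:71534255-71537456, minus strand), measured 5.61, 8.96, 5.34 and 9.12 CPM in WT and 12.0, 9.65, 5.43 and 9.87 CPM in ATGLKO mice. ATGLKO 3 sat among the lowest WT mice, and the log2FC of 0.37 did not pass (SE 0.31, 95% interval −0.29 to 1.03, edgeR adjusted p = 0.445). It was 0.22 without WT 3, 0.23 without ATGLKO 1 and 0.56 without ATGLKO 3. Ifi27l2a, a small hydrophobic protein of the ISG12 family (chr12:103442167-103443680, minus strand), had counts from 148 to 332 in WT and from 168 to 678 in ATGLKO mice. ATGLKO 1 and 2, at 239.9 and 199 CPM, were above every WT mouse, while ATGLKO 3 and 4, at 93.2 and 72.1 CPM, lay within or under the WT range of 72.8 to 149 CPM. The log2FC was 0.59 (SE 0.33, 95% interval −0.12 to 1.30, edgeR adjusted p = 0.242), and 0.29 without ATGLKO 1 (edgeR adjusted p = 0.607). Means were 100.6 ± 35.5 CPM in WT and 151 ± 81.1 CPM in ATGLKO mice (SD, n = 4 each), where the ATGLKO mice spread far more widely around their mean than they did for Ifitm3.

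**Figure D2:**
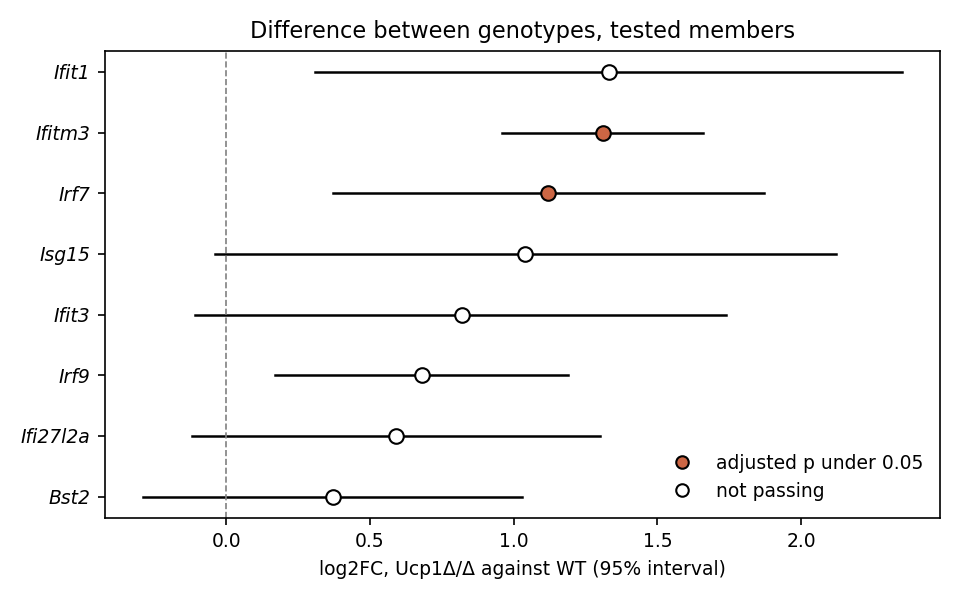
Log2FC of ATGLKO over WT for the 8 tested interferon-stimulated genes with 95% intervals from the edgeR quasi-likelihood test, 4 mice a genotype, with filled points where the adjusted p was under 0.05. All points lie above 0, from 0.37 for Bst2 to 1.33 for Ifit1, and Ifitm3 has the narrowest interval.

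No movement of the members as a block from mouse to mouse was seen. Several of them rest on few counts a mouse, where counting error alone pulls correlations toward 0, so shared movement could have been missed. After the genotype means were taken out, the mean deviation of the tested members was highest in WT 2 (0.35 on the log2 CPM scale) and ATGLKO 2 (0.23) and lowest in ATGLKO 4 (−0.28). Over the 28 pairs of tested members and the 8 mice, which share their libraries and depth, the median Pearson r of these deviations was 0.06, and 16 pairs were above 0. The pairs ran from −0.87 for Irf9 with Isg15 to 0.86 for Bst2 with Ifitm3. The 5 other genes whose deviations were most like the members' mean were Capza2 (r = 0.974), Stx4a (0.962), Scd1 (0.957), Arf1 (0.952) and Asnsd1 (0.950), each over the same 8 mice. They were picked as the highest of all tested genes, where so few mice allow high r by chance, so these values are a description only. Of the 100 genes with the highest r, 0 were in the interferon lists. The tested genes of those lists are so few among the 8930 that this count is near their share and says little.

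**Figure D3:**
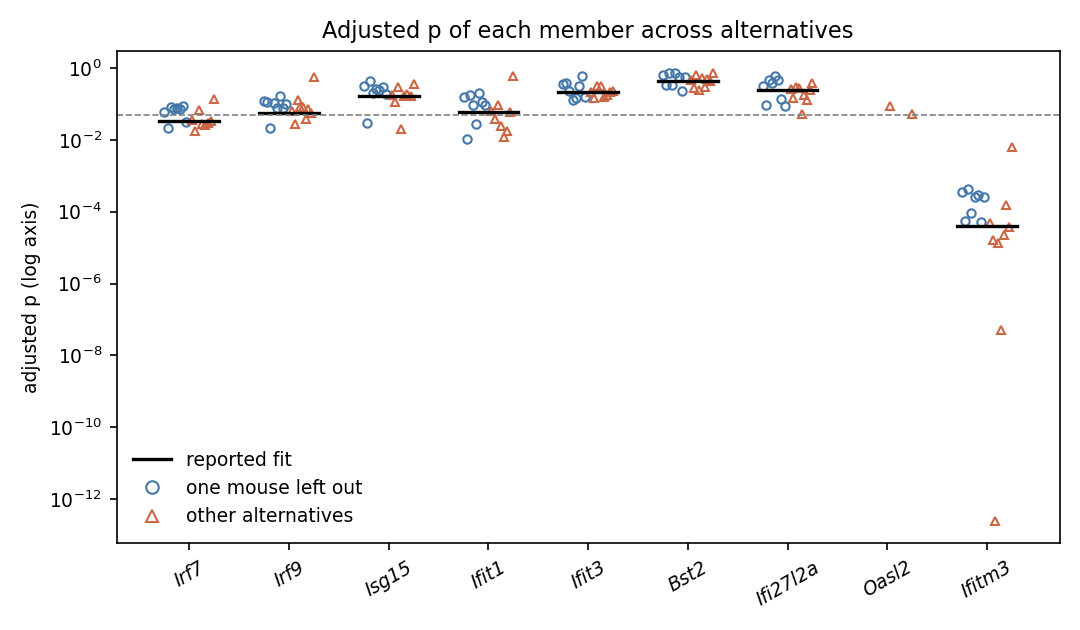
Adjusted p (log axis) of each interferon-stimulated gene in the reported test (black bar), with 1 mouse left out (circles) and under the other alternatives (triangles), with a dashed line at 0.05. Ifitm3 lies under the line throughout, Irf7 in 8 of 16 alternatives, and Ifit3, Bst2 and Ifi27l2a in none. Oasl2 has no bar because it was not tested, and only 2 alternatives gave it a value.

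The rest of the pathway was read from lists of known genes. The interferons themselves were almost absent: 9 of 10 interferon ligand genes had 0 counts in all 8 mice, and the remaining one, Ifng, had 2 counts in WT 2 and 1 in ATGLKO 1. At this depth a transcript of up to 0.933 to 1.53 CPM a library could have gone uncounted. Among the receptors and JAK-STAT genes, 2 of 10 tested rose, the kinase Jak1 from 127 ± 9.15 to 192 ± 6.94 CPM (log2FC 0.59, SE 0.15, edgeR adjusted p = 0.0103) and the interferon gamma receptor Ifngr1 from 88.0 ± 20.4 to 138 ± 19.9 CPM (log2FC 0.65, SE 0.20, edgeR adjusted p = 0.0298). The share of 20% is to be read against 13.3% of all genes, and the median log2FC of this list was 0.33. edgeR and limma voom called none of the 10 lower, DESeq2 called 1 lower, and 1 was lower at an unadjusted edgeR p under 0.05. That gene, the type I receptor subunit Ifnar2, was named after its values were seen: it was 109 ± 3.13 CPM in WT and 85.4 ± 2.80 CPM in ATGLKO mice, with every ATGLKO mouse below every WT mouse (log2FC −0.35, SE 0.15, edgeR adjusted p = 0.113). Of the 5 other interferon regulatory factors tested, 1 rose (20%, against 13.3% of all genes), Irf8, which directs the development of myeloid cells, from 3.74 ± 1.66 to 20.5 ± 1.86 CPM (log2FC 2.51, SE 0.30, edgeR adjusted p = 2.6e-05).

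Among the interferon lists, the largest share of called genes was that of the other type I interferon-stimulated genes. Of the 58 listed, 56 were in the table and 33 were tested, and 17 of the 33 (51.5%) rose, against 13.3% of all genes. Some listed genes, such as Slfn2 here and Tmem173 and Ptpn6 below, passed the low-count filter only through the ATGLKO mice. Such genes could be called higher but hardly lower. The fit without the filter called 21 of 54 higher and 0 lower, where it called 9.81% of 16617 genes higher. The median log2FC of the 33 tested genes was 0.89, close to the 0.93 of the members, and the median over all genes was −0.01. The 4 with the smallest adjusted p were Slfn2 of the Schlafen family, Samhd1, which depletes nucleotides needed by viruses, and the nucleic acid-binding genes Ifi207 and Ifi203. Slfn2 rose from 1.65 ± 0.736 to 17.1 ± 8.27 CPM (log2FC 3.29, SE 0.43, edgeR adjusted p = 5.97e-05) and Samhd1 from 15.1 ± 4.79 to 46.6 ± 2.30 CPM (log2FC 1.64, SE 0.22, edgeR adjusted p = 7.23e-05). The log2FC of Ifi207 was 2.24 (SE 0.30) and that of Ifi203 1.31 (SE 0.20), equal to the log2FC of Ifitm3. None of the 33 was called lower by edgeR, DESeq2 or limma voom, and 0 were lower at an unadjusted edgeR p under 0.05.

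Of the 21 tested genes for interferon gamma-induced GTPases and antigen processing, 6 rose (28.6%, against 13.3% of all genes) and 1 fell, where 7.63% of all genes fell. B2m, the light chain of MHC class I, rose from 874 ± 56.4 to 1397 ± 209 CPM (log2FC 0.68, SE 0.16, edgeR adjusted p = 0.00726), and Tapbp, which helps to load peptides on that complex, had a log2FC of 0.61 (SE 0.15, edgeR adjusted p = 0.0102). Ciita, the master regulator of MHC class II, had a log2FC of 1.6 (SE 0.41, edgeR adjusted p = 0.0111), and the immunoproteasome subunit Psmb10 one of 0.80 (SE 0.23, edgeR adjusted p = 0.0225). Psme1, a proteasome activator subunit, went the other way and fell from 115 ± 6.26 to 79.1 ± 9.37 CPM (log2FC −0.54, SE 0.16, edgeR adjusted p = 0.0241). Upstream, 1 of 7 tested nucleic acid sensing genes rose, a share of 14.3% that is close to the 13.3% of all genes, Tmem173, which encodes STING (log2FC 1.78, SE 0.46, edgeR adjusted p = 0.0120). That closeness held only under the low-count filter. The fit without the filter, which called 9.81% of 16617 genes higher, called 4 of 11 genes of this list higher and 0 lower. Among the negative regulators 2 of 7 rose (28.6%), the phosphatase genes Ptpn6 (log2FC 2.14, SE 0.43, edgeR adjusted p = 0.00208) and Ptpn1 (log2FC 0.65, SE 0.20, edgeR adjusted p = 0.0309). Of the 4 genes of the ISG15 conjugation list only Uba7 passed the low-count filter, and its log2FC of 0.13 did not pass the test (SE 0.33, edgeR adjusted p = 0.827). In the fit without the filter 2 of the 4 were called higher and 0 lower, on few counts a mouse. They were Herc6 (log2FC 1.57, SE 0.47, edgeR adjusted p = 0.00987) and Usp18 (log2FC 1.82, SE 0.65, edgeR adjusted p = 0.0377).

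Several of these pathway calls were near the threshold and were lost when 1 mouse was left out, mostly whichever of several mice it was. The edgeR adjusted p of Ifngr1 passed 0.05 without WT 3 (0.105), ATGLKO 2 (0.0684) or ATGLKO 4 (0.0942), that of Psmb10 without WT 1 (0.0700), ATGLKO 1 (0.0682) or ATGLKO 3 (0.0551), and that of Ciita without ATGLKO 2 (0.0520). For Psme1 it did so without WT 1 (0.0588), ATGLKO 1 (0.0709), ATGLKO 2 (0.0811) or ATGLKO 3 (0.0750), and for Ptpn1 without WT 1 (0.0870), WT 3 (0.0548), WT 4 (0.0653), ATGLKO 2 (0.122) or ATGLKO 3 (0.0605). Jak1, Irf8, Slfn2, Samhd1, Ifi207, Ifi203, B2m, Tapbp, Tmem173 and Ptpn6 passed whichever single mouse was left out. The fall of Psme1 also did not pass with total-count scaling (0.0934) or with at least 10 counts in every mouse (0.0510).

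**Figure D4:**
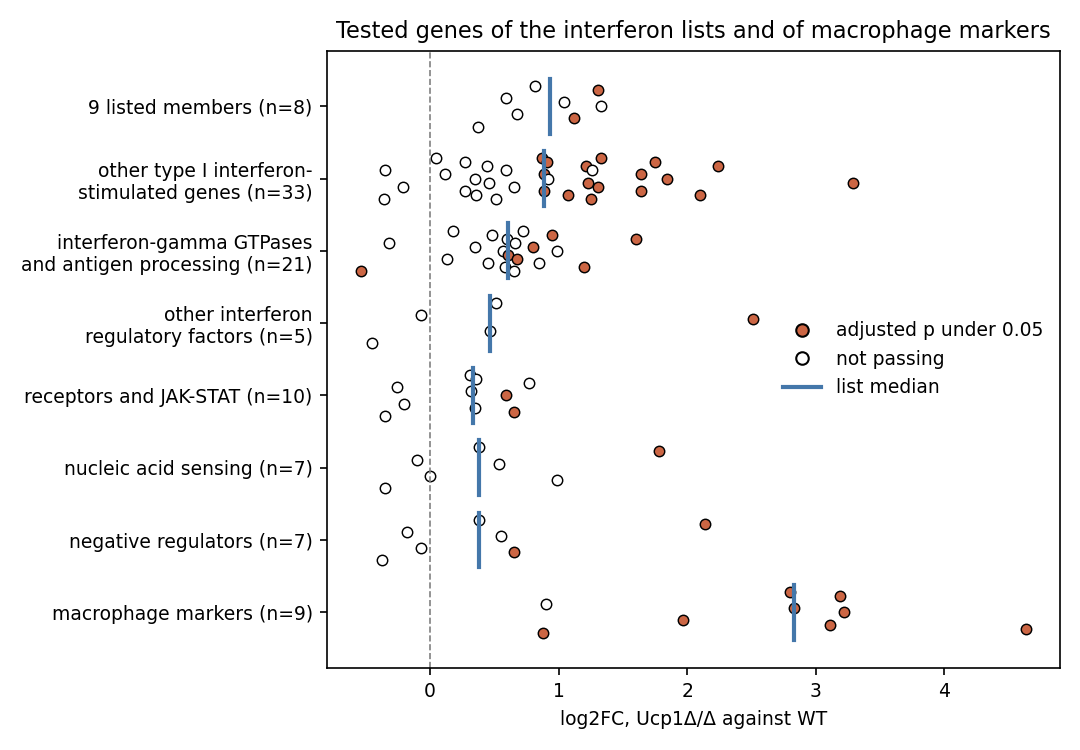
Log2FC of ATGLKO over WT for every tested gene of the members, of the interferon pathway lists with at least 5 tested genes and of the macrophage markers, 1 point a gene, with filled points where the edgeR adjusted p was under 0.05 and a vertical bar at each list's median. The medians of the members (0.93) and of the other type I interferon-stimulated genes (0.89) stand above those of the receptors (0.33) and of the negative regulators (0.38) and below that of the macrophage markers (2.83).

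Markers of other cell types moved with genotype beside the interferon genes. Counts of tested markers are to be read against the 13.3% of all genes tested that rose and the 7.63% that fell. Of the 10 macrophage markers, 9 were tested and 8 rose, with a median log2FC of 2.83, and their summed level was 134 to 169 CPM in WT and 728 to 1120 CPM in ATGLKO mice. All 10 were detected in both genotypes, with Adgre1 at 0 counts in WT 1 alone. Of 7 fibroblast and progenitor markers 6 rose, with sums of 333 to 486 CPM in WT and 858 to 1690 CPM in ATGLKO mice, and 4 of 7 brown adipocyte markers fell, with sums of 7450 to 18000 and 6160 to 10100 CPM. In bulk tissue, more cells of a type and more RNA per cell cannot be told apart. Of 7 plasmacytoid dendritic cell markers 2 were tested and 1 rose, Tcf4, which other cells also express, and the list summed to 99 to 226 CPM in WT and 217 to 306 CPM in ATGLKO mice. That sum rested almost wholly on Tcf4 and Cox6a2. Cox6a2 was highest in WT 1 (57.6 CPM) and ATGLKO 2 (79.3 CPM), the mice of each genotype with the most skeletal muscle transcripts. The sum is therefore not a level of plasmacytoid dendritic cells. The more specific Siglech had 3 counts in all WT mice together and 3 in all ATGLKO mice, Ccr9 had 1 count in ATGLKO 1 alone, and Klk1 had 0 in every mouse. Runx2 had 0, 0, 0 and 2 counts in WT and 2, 3, 1 and 5 in ATGLKO mice. Pacsin1 had 0, 0, 0 and 1 counts in WT and 2, 0, 1 and 0 in ATGLKO mice. Without the filter edgeR called neither (adjusted p = 0.249 and 0.689). It called 2 of 6 genes of this list higher, Tcf4 and Cox6a2, and 0 lower, where 9.81% of all genes were called higher. Summed markers overlapped between the genotypes for neutrophils (1.01 to 7.62 CPM in WT and 1.72 to 5.91 CPM in ATGLKO mice), for T and NK cells (3.67 to 9.41 and 7.94 to 20.2 CPM) and for B and plasma cells (0 to 4.08 and 1.29 to 7.43 CPM), and no gene of these lists passed the low-count filter. The fit without the filter, which called 9.81% of 16617 genes higher, called 1 of the 9 genes of the T and NK cell list higher, near that share. It was the NK cell marker Klrb1c, with 1, 1, 3 and 1 counts in WT and 9, 11, 5 and 6 in ATGLKO mice (log2FC 2.03, SE 0.70, edgeR adjusted p = 0.0324). Nkg7 (edgeR adjusted p = 0.549) and Ncr1 (edgeR adjusted p = 0.177) of the same list were not called. Endothelial markers summed to 217 to 244 CPM in WT and 260 to 303 CPM in ATGLKO mice, and none of the 7 passed the edgeR test. At an unadjusted edgeR p under 0.05, where the share of all genes was not counted, 2 were higher. Of the same 7, limma voom called 1 and DESeq2 called 0. Skeletal muscle markers ranged from 18.4 to 1340 CPM in WT and from 54.3 to 1740 CPM in ATGLKO mice, and erythroid markers from 3570 to 6990 and from 2770 to 6770 CPM. The labels name the stromal vascular fraction as the cell type, but the adipocyte gene Ucp1 was counted 2548 to 10261 times in every mouse. The part of these cell markers in the interferon gene results was not tested.

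The size of the macrophage marker difference can be set beside that of the members through ratios within each mouse. The log2 ratio of Csf1r, the receptor that maintains macrophages, to Ifitm3 was −1.37 ± 0.25 in WT and 0.12 ± 0.22 in ATGLKO mice (SD, n = 4 each), a difference of 1.5 without overlap. The ratio of Csf1r to Irf7 went from 2.42 ± 0.47 to 4.14 ± 0.36, a difference of 1.71, again without overlap. The ratio of Irf8 to Irf7 differed by 1.23 with overlap. These 3 ratios were chosen after their values were seen and are given as a description, with no test.

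Some libraries carried more muscle RNA than others, in both genotypes. Without the 4 mice with the most skeletal muscle transcripts, 2 from each genotype, the test compared only 2 mice with 2. Ifitm3 still passed and Irf7 did not (edgeR adjusted p = 0.136), so 1 member was called instead of 2. The log2FC of Irf7 was 1.08 here and 1.12 with all mice. The log2FC of Irf9 became 0.41 (edgeR adjusted p = 0.545) and that of Ifit1 0.60 (edgeR adjusted p = 0.617) in this comparison, while that of Ifit3 was 1.22 (edgeR adjusted p = 0.229). The edgeR adjusted p also passed 0.05 for Jak1 (0.0767), Tmem173 (0.0725), Ifngr1 (0.149), Ciita (0.0950), Psmb10 (0.0628), Psme1 (0.113) and Ptpn1 (0.452). Among these genes the log2FC shrank only for Tmem173 (1.56 against 1.78 with all mice) and Ptpn1 (0.37 against 0.65). The count of pathway list genes that rose went from 29 to 19 in the same comparison, while 1191 higher calls over all genes became 760.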

How the data were processed

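BAT mRNA of 8 mice was sequenced as single-end reads of 75 cycles by a digital mRNA-seq service. Per the study's methods, the authors used bbduk for trimming, STAR for alignment to mm10 and HTseq-counts for the totals of each Ensembl gene. The deposited table holds whole-number counts without normalization. The submitters' processing notes name Trimmomatic, HISAT2 and DESeq2 instead, without roles. The strand setting and annotation release are not given in the sources used here. A deposited log2 table was not used.

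Counts were analysed in R 4.3.3. The main test was edgeR 4.0.16 (filterByExpr, TMM scaling, quasi-likelihood F test, Benjamini-Hochberg over 8930 genes, threshold 0.05). Single values were compared by an exact two-sided permutation test over mice. SE is the log2FC divided by the root of F, and log2 CPM for deviations and ratios used a prior count of 2. Symbols were found for 30934 of 31053 identifiers, and 208 of 211 listed symbols were in the table. The scripts were tested on simulated data.

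Genotypes came from the labels. Members and lists were chosen with earlier results of these data known. Named genes were the members, Pnpla2, up to 4 passing genes a pathway list in each direction by adjusted p (the smallest adjusted p where none passed) and the 5 genes most like the members across mice. Lists covered interferon ligands, receptors and JAK-STAT genes, interferon regulatory factors, interferon-stimulated genes, antigen processing, ISG15 conjugation, nucleic acid sensing, negative regulators and cell type markers. Alternatives were DESeq2 1.42.0 (Wald test, and its size factors in edgeR), limma 3.58.1 voom with sample quality weights, total-count scaling, no filter, at least 10 counts in every mouse, mitochondrially encoded genes left out, a replicate block, and each mouse left out. Positions are those of GENCODE M21 on mm10 and shared sequence was counted in 75-base windows of its transcripts. Promoter windows are from RefSeq, GRCm38.p6.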

Additional observations from a re-analysis of the deposited data

Results flagged for a closer look

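No member stood out, but 3 of the 52 groups of 4 mice examined for 26 genes held a mouse far from the other 3, where chance gives about 1 in 20, or 2.6 groups. Ifngr1 was low in WT 3, with 5.86 log2 CPM where the other WT mice had 6.60 to 6.66, a gap of 0.925 of the group's range. B2m was low in the same mouse, at 9.63 against 9.81 to 9.83, a gap of 0.879 of the range. Psme1 was high in ATGLKO 4, at 6.55 against 6.22 to 6.24 in the other ATGLKO mice, a gap of 0.940 of the range.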

How the results depend on the processing

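Depth limits Irf7, Isg15, Ifit1, Ifit3 and Oasl2, which rest on few counts a mouse, since 3 counts in a library already amount to 0.933 to 1.53 CPM. Of 398 values of the 24 genes examined under the alternatives, 353 kept their direction and side of the threshold, 33 lost the call, 11 gained it and 1 reversed, Uba7 at −0.26 without ATGLKO 3 (edgeR adjusted p = 0.606), the low end of a range up to 0.30 with 1 mouse left out. The number of members called was 2, and became 4 with total-count scaling, 4 with limma voom, 1 with DESeq2, 1 without the 4 mice with most muscle transcripts (an alternative chosen after seeing the data), 3 without the filter, and 1 to 4 with 1 mouse left out. Total-count scaling put the median log2FC over the 8930 genes at 0.13 instead of −0.01 and the split of calls from 1191 higher and 681 lower to 1478 and 404. Requiring at least 10 counts in every mouse, which tests fewer genes, gave 1195 calls, 746 higher and 449 lower, against 1872, and 18 pathway genes higher against 29. Without the 4 mice richest in muscle transcripts there were 1025 calls, 760 higher and 265 lower, and 19 pathway genes higher. The count of lower pathway genes was 1 and ran from 0 to 2. With 1 mouse left out, all calls ran from 1345 to 2155, higher from 945 to 1304, lower from 400 (without ATGLKO 2) to 851, and higher pathway genes from 24 to 35. For the remaining changes the cause was not tested. Pnpla2 kept its call throughout (log2FC −2.68 to −2.48). Replicate numbers are shared between genotypes but name different animals: the deviations of like-numbered mice correlated from −0.196 to 0.304, and 3 of 8 mice were most like the mouse of their own number. With a replicate block 3 members were called, Ifit1 being added (edgeR adjusted p = 0.0173).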

Other observations

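Further interferon response genes were too sparse for the low-count filter and were picked after their values were seen. Oas2, an oligoadenylate synthetase, had 0 counts in every WT mouse and 3, 11, 4 and 5 counts in the ATGLKO mice, at least 6.53-fold higher against a floor of 3 counts over the WT group. Tlr7, a receptor for single-stranded RNA, had 0, 0, 0 and 1 counts in WT and 12, 12, 5 and 6 in ATGLKO mice. The genotypes did not overlap for these genes, as for 10.9% of the 16617 genes with at least 1 count. Irf5, a transcription factor of the interferon and cytokine response, had 0, 1, 1 and 3 counts in WT and 21, 23, 3 and 10 in ATGLKO mice, where WT 4 and ATGLKO 3 had equal counts. No test is given, since the separation chose these genes.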
